A study of Rattus norvegicus with 18 samples.

Results

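Gangliosides are glycolipids that carry sialic acid, and the A2B5 antibody recognises polysialylated members of this class on glial progenitors and some neurons. The 10 genes described here encode glycosyltransferases that build gangliosides. The data are expression arrays of O4+ cells and A2B5+ cells that were sorted by flow cytometry from whole brain dissociates of male rat pups at postnatal day 7. The members are the genes Ugcg, B4galt6, St3gal5, St8sia3, B4galnt1, B3galt4, St3gal1, St3gal2, St8sia5 and St6galnac3, and every probe set that the platform annotation assigns to exactly 1 of these symbols was taken. The 10 are among 13811 genes named on the arrays. They have 12 of the 31256 probe sets, 9 of them on array A and 3 on the other of the 2 array types, array B.

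There were 4 replicates of O4+ cells and 5 of A2B5+ cells, each from a litter of 10 male pups, with 1 array of each type per replicate. The O4 antibody binds sulfatide, a myelin lipid carried by late progenitors and oligodendrocytes. The labels name no strain, genotype or treatment, and they do not say whether O4+ and A2B5+ replicates shared litters, or whether the word single in them means single cells or cells with 1 antigen. A sorted population can hold several cell types. Fewer cells of a type and less RNA per cell cannot be told apart in such samples.

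Ganglioside synthesis starts on ceramide. Glucose and then galactose are added, a sialic acid follows, and the number of sialic acids added at that stage sets the a-, b- or c-series. The chain of each series is then extended with N-acetylgalactosamine, galactose and further sialic acids. A2B5 is known for binding c-series gangliosides, and gangliosides of brain change in pattern as neural cells mature.

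The deposited values are ratios, in which the median of a probe set's 9 arrays is 1 or below 1. Probe sets with a median below 1 are called dim here, on the assumption that a low median was replaced by a fixed minimum, a step that neither labels nor files record. The ratios compare arrays for 1 probe set, and never the level of 1 gene with that of another. Testing needed a ratio of 1 or more on 4 or more of the arrays. Differences are on the log2 scale, O4+ over A2B5+, with a standard error from limma, a linear model fitted over all tested probe sets of an array type. Calls were made where the Benjamini-Hochberg adjusted p lay under 0.05. Of the 12 probe sets, 11 passed the filter, and these cover 9 of the 10 genes. The one left out is that of B4galnt1.

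Calls were common on both array types. Differences between the populations and a shift of whole arrays were not told apart. Array A had calls for 47.2% of 13098 tested probe sets, 32.5% higher and 14.7% lower in O4+ cells. Array B had calls for 23.7% of 11136, 9.93% higher and 13.8% lower. Of the calls on array A 68.8% were higher, but 51.0% when each array was centred on its median and 35.9% when it was centred on its dim probe sets. The dim probe sets, those with a median ratio under 1, had array medians of -0.60 to -0.39 (log2) on O4+ arrays and -0.98 to -0.69 on A2B5+ arrays of array A, a difference of 0.33. On array B this difference was 0.07. All 13 tested markers of oligodendrocytes and myelin were called higher in O4+ cells, with a median difference of 4.87. The filter can pass a gene on its 4 O4+ arrays alone, so this count is not independent of the filter. Opalin, named after its values were seen, passed that way, with A2B5+ ratios of 0.449 to 0.465. Where the filter was a median ratio of at least 1, 12 were called higher. Lower in O4+ cells were 9 of 10 microglia markers, 9 of 11 endothelial and mural markers, 4 of 6 ependymal markers, 6 of 11 astrocyte markers and 10 of 18 neuron markers, while 4 neuron markers were higher. These marker counts come from a fit with 1 row per gene, which called 28.8% of all genes higher and 17.8% lower. Centred on array medians 7 astrocyte markers were lower and 2 neuron markers higher. Centred on dim probe sets these counts were 9 and 1. The mean log2 ratio of the neuron markers of array A was -0.60 to -0.28 on O4+ arrays and -0.29 to 1.06 on A2B5+ arrays. Astrocyte markers averaged -0.91 to -0.25 on O4+ and -0.05 to 0.75 on A2B5+ arrays, and microglia markers -1.31 to 0.06 on O4+ and -0.01 to 0.82 on A2B5+ arrays. Endothelial and mural markers averaged -2.04 to -0.75 on O4+ and 0.16 to 0.49 on A2B5+ arrays, and ependymal markers -1.03 to 0.16 on O4+ and -0.20 to 1.50 on A2B5+ arrays. The 2 endothelial and mural markers not called were the mural genes Pdgfrb (-0.30 ± 0.36) and Rgs5 (-0.16 ± 0.48). Ratios do not show which of these markers are near 0. Of 7 tested progenitor markers 4 were lower and 3 higher, and under either centring 2 were higher. Cspg4 was counted as lower both here and among the endothelial and mural markers. The part of these other cells in the results below was not tested.

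The ganglioside enzymes moved in both directions. On array A 4 of 8 tested member probe sets were higher and 3 lower in O4+ cells, against the shares of 32.5% and 14.7% over all probe sets. On array B 1 of 3 was higher and 0 lower by limma, and the other 2 had unadjusted p-values of 0.117 and 0.416. The median difference of the 8 was 0.46, against 0.26 for all tested probe sets of array A. St6galnac3 and St8sia5 rose most, 6.88-fold and 4.62-fold. On array A St3gal2, St3gal1 and B4galt6 were 3.86-fold, 2.48-fold and 2.42-fold lower in O4+ cells. The values of O4+ and A2B5+ arrays did not overlap for 5 of the 8 probe sets on array A, where 44.0% of all probe sets showed no overlap, and for 1 of 3 on array B, where 25.6% did. Averaged over the 8 probe sets of array A, the log2 ratio was -0.19 to 0.15 on O4+ arrays and -0.11 to 0.01 on A2B5+ arrays.

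**Figure D1:**
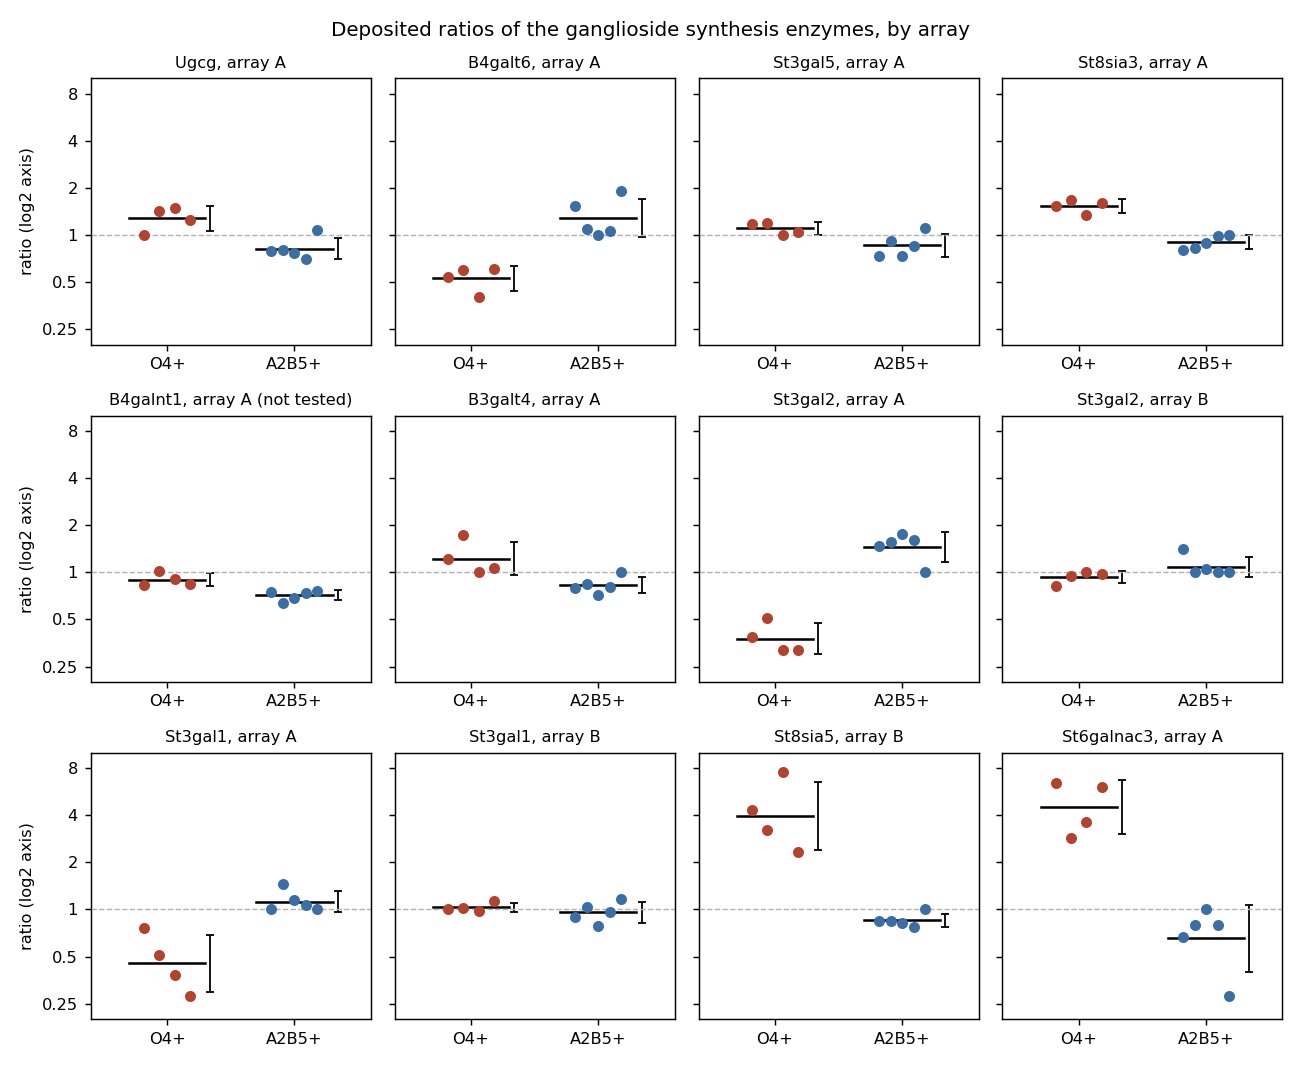
Deposited ratio (log2 axis) of each of the 12 member probe sets, O4+ arrays in red on the left and A2B5+ arrays in blue on the right, with points in order of replicate number, a line at the mean of the log2 ratios and a bar of 1 SD on either side. St8sia5 and St6galnac3 lie between 2.322 and 7.518 in O4+ cells and at or under 1 in A2B5+ cells, while St3gal2 on array A lies at or under 0.513 in O4+ cells and at or above 1 in A2B5+ cells.

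The terminal sialyltransferases St8sia5 and St6galnac3 had the largest rises. St8sia5 adds a sialic acid to an existing one and works on gangliosides of several series. On array B its ratio was 4.311, 3.192, 7.518 and 2.322 in O4+ cells, against 0.848, 0.838, 0.819, 0.772 and 1.000 in A2B5+ cells. All O4+ arrays were above all A2B5+ arrays, and they spread more among themselves, with an SD of 0.72 against 0.14 on the log2 scale. The difference was 2.21 ± 0.30 (limma, adjusted p = 0.000904), the 235th highest of 11136 on the array. Leaving out any 1 replicate gave 1.90 to 2.46, each still called.

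St6galnac3 transfers sialic acid to the N-acetylgalactosamine of sialylated chains, on gangliosides and on glycoproteins. Its ratio on array A was 6.419, 2.869, 3.635 and 6.076 in O4+ cells, against 0.666, 0.799, 1.000, 0.791 and 0.281 in A2B5+ cells. The populations did not overlap, and the spread was wide in both, with SDs of 0.57 in O4+ and 0.71 in A2B5+ cells (log2). The difference was 2.78 ± 0.37 (limma, adjusted p = 0.000262), the 195th highest of 13098. O4+ replicate 2 was the lowest of the O4+ arrays and A2B5+ replicate 5 the lowest of all. Over the 11 oligodendrocyte and myelin markers tested on array A the mean log2 ratio was 3.60 on O4+ replicate 2 and 3.83 to 4.16 on the other O4+ arrays, and it was -1.25 on A2B5+ replicate 5 and -1.001 to -0.479 on the other A2B5+ arrays. Single markers differed in this, since on O4+ replicate 2 Ugt8 had its lowest O4+ ratio (7.743) but Mbp and Mog, genes of myelin proteins, their highest (20.39 and 26.64), all 3 named after their values were seen. Over the 7 progenitor markers the mean was -0.13 on O4+ replicate 2, within the -0.16 to 0.18 of the other O4+ arrays, and -0.73 on A2B5+ replicate 5, against -0.24 to 0.69 on the other A2B5+ arrays. The part of these cells in the St6galnac3 values was not tested.

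The promoters of St8sia5 and St6galnac3 are shown because these members had the largest rises, followed by that of St3gal2, which was lower in O4+ cells on array A. Each runs from 250 bases before to 50 bases after the RefSeq start (GRCr8), and capitals mark GC boxes, the letters GGGCGG on either strand, which are known as binding sites of Sp1-type factors. The St8sia5 window is chr18:73011337-73011636 on the plus strand, that of St6galnac3 chr2:245304896-245305195 on the minus strand and that of St3gal2 chr19:55833106-55833405 on the plus strand.
St8sia5: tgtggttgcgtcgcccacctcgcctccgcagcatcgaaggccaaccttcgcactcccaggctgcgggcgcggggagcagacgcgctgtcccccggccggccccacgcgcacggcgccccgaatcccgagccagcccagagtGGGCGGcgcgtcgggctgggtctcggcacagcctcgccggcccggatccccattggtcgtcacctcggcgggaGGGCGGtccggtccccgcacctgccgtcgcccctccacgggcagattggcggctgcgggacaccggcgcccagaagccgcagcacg
St6galnac3: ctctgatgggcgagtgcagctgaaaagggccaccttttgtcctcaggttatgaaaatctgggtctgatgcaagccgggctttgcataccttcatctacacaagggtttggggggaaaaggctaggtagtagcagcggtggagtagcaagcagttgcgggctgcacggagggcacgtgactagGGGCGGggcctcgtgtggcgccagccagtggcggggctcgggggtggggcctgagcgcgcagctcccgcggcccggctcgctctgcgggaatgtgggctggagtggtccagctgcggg
St3gal2: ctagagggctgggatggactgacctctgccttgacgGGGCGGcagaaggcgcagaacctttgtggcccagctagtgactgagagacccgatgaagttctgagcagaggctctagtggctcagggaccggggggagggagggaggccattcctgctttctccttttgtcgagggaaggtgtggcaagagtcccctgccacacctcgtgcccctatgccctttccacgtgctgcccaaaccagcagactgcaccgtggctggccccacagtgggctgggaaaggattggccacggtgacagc

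The St8sia5 window held 2 GC boxes and 42 CG dinucleotides at 76.0% G and C, those of St6galnac3 and St3gal2 1 GC box each, with 19 and 10 CG dinucleotides at 64.3% and 62.3%. Windows were found for 6 of the 10 members, 7 in all because St3gal5 has 2, and 6 of the 7 held a GC box, against 33.1% of 33469 rat promoters. The TATA box letters TATAAA (either strand) were in 0 of the 7 and in 14.2% of all. The E-box letters CACGTG, which read the same on both strands, were in 3 of the 7, those of St6galnac3, St3gal2 and B3galt4, and in 6.42% of all. The SOX motif letters ACAAAG (either strand) were in 1, that of St3gal2, and in 18.8% of all. GC-rich windows hold GC boxes more readily, and the median over all promoters was 51.7% G and C. GC boxes were present in the windows of risers and of St3gal2 alike.

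St3gal2 and St3gal1 add sialic acid to the terminal galactose of the extended chain, St3gal2 being a main such enzyme of brain gangliosides in mice. The array A probe set of St3gal2 had ratios of 0.385, 0.513, 0.318 and 0.320 in O4+ cells, against 1.474, 1.568, 1.759, 1.603 and 1.000 in A2B5+ cells. Every O4+ array was lower, by -1.95 ± 0.20 (limma, adjusted p = 5.65e-05). Its array B probe set did not show this. It read 0.815, 0.942, 1.003 and 0.971 in O4+ cells, against 1.398, 1.000, 1.053, 1.006 and 0.997 in A2B5+ cells. These ranges overlapped, and the difference of -0.22 ± 0.13 was not called (limma, adjusted p = 0.231).

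St3gal1 showed the same split between its probe sets. On array A it had ratios of 0.761, 0.509, 0.382 and 0.281 in O4+ cells, against 1.005, 1.445, 1.148, 1.062 and 1.000 in A2B5+ cells. All O4+ arrays were below all A2B5+ arrays, with a difference of -1.31 ± 0.26 (limma, adjusted p = 0.00276) and an SD of 0.61 among O4+ against 0.22 among A2B5+ arrays. On array B the ratios were 1.000, 1.021, 0.981 and 1.134 in O4+ cells, against 0.896, 1.037, 0.781, 0.956 and 1.173 in A2B5+ cells. They overlapped, and the difference was 0.11 ± 0.12 (limma, adjusted p = 0.547). The probe sets of both genes were designed on different transcript records, and which part of the transcripts each one reads was not analysed here. Whether the array types differ in these changes was not tested, and the falls of both genes rest on 1 of 2 probe sets.

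At the start of the path the enzymes moved apart. Ugcg, which attaches glucose to ceramide, had ratios of 1.000, 1.431, 1.497 and 1.244 in O4+ cells, against 0.789, 0.803, 0.769, 0.708 and 1.075 in A2B5+ cells. Replicate 5 of the A2B5+ cells lay within the O4+ range and the other 4 below it. The difference of 0.64 ± 0.17 was called (limma, adjusted p = 0.0127). It was 0.47 and still called (limma, adjusted p = 0.0385) when arrays were centred on their medians. But it was 0.31 and no longer called (adjusted p = 0.142) when arrays were centred on their dim probe sets. B4galt6, which adds the galactose and shares this step with B4galt5, had ratios of 0.537, 0.596, 0.403 and 0.607 in O4+ cells, against 1.529, 1.094, 1.000, 1.068 and 1.915 in A2B5+ cells. The populations did not overlap and the difference was -1.27 ± 0.22 (limma, adjusted p = 0.00124). B4galt5, its partner in the same step, rose by 0.51 ± 0.17 in the fit with 1 row per gene (limma, adjusted p = 0.031). That call ended with arrays centred on their medians (0.34, adjusted p = 0.150) or on dim probe sets (0.19, adjusted p = 0.489).

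**Figure D2:**
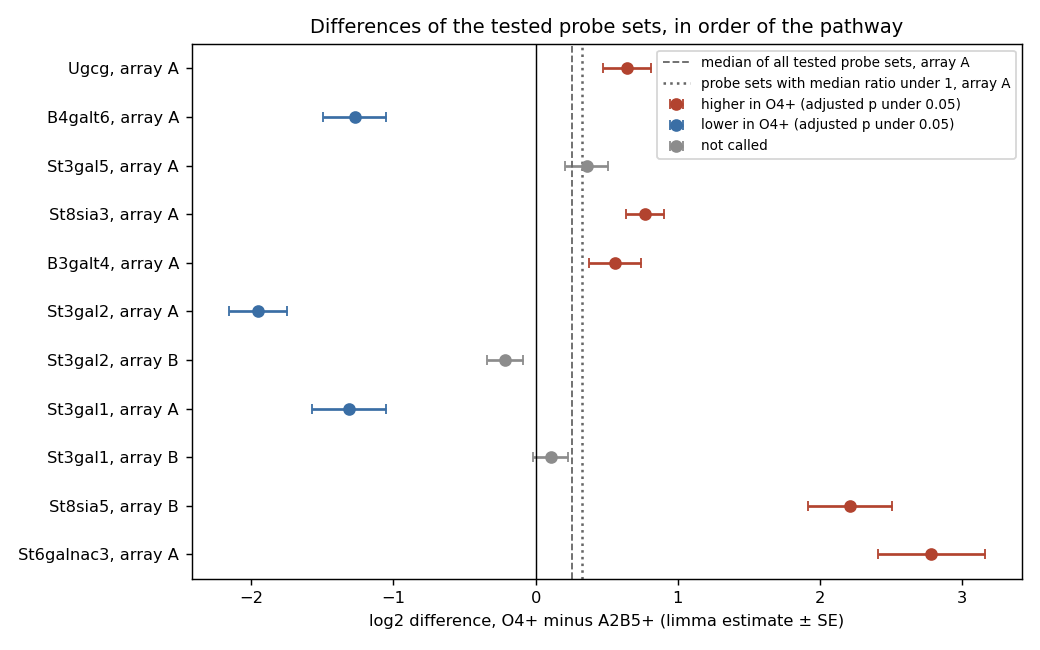
Log2 difference (O4+ minus A2B5+; bars are limma's standard errors) of the 11 tested probe sets in order of the pathway. Red points were called higher, blue points lower and grey points were not called. The dashed line marks the median of all tested probe sets of array A (0.26) and the dotted line the difference of the dim probe sets of array A (0.33). For the points of array B these values were 0.04 and 0.07, and no line marks them. St3gal5 lies next to the dotted line at 0.36, and B3galt4 and Ugcg lie above it at 0.56 and 0.64.

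St3gal5 makes the simplest ganglioside by adding the first sialic acid. Its ratios were 1.182, 1.195, 1.000 and 1.045 in O4+ cells, against 0.735, 0.919, 0.737, 0.856 and 1.103 in A2B5+ cells. A2B5+ replicate 5 lay within the O4+ range, and the difference of 0.36 ± 0.15 was not called (limma, adjusted p = 0.0740). Without A2B5+ replicate 5 it was 0.45 and called (adjusted p = 0.0252), and centred on dim probe sets it was 0.03 (adjusted p = 0.871).

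St8sia1 and St8sia3 lengthen the sialic acid chain, St8sia1 to the b-series and St8sia3 further, as well as on glycoproteins. St8sia3 had ratios of 1.542, 1.676, 1.336 and 1.597 in O4+ cells, against 0.799, 0.833, 0.888, 0.994 and 1.000 in A2B5+ cells. The populations did not overlap, and the difference was 0.77 ± 0.13 (limma, adjusted p = 0.00113). It was 0.44, still called (adjusted p = 0.00548), with arrays centred on dim probe sets. In A2B5+ cells the St8sia3 values followed the dim probe sets closely. After their pattern was subtracted the SD over A2B5+ arrays was 0.024, against a median of 0.047 for dim probe sets and 0.26 for those with a median ratio of 1. A smaller residual SD over A2B5+ arrays was seen in 14.7% of dim probe sets and in 0.540% of probe sets with a median ratio of 1. These shares were computed for St8sia3 alone and are no test. On O4+ arrays the residual SD of St8sia3 was 0.11.

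St8sia1 is no member but opens the path to the b- and c-series, and its probe set was dim. Its ratios were 0.552, 0.658, 0.549 and 0.563 in O4+ cells, against 0.436, 0.470, 0.451, 0.503 and 0.512 in A2B5+ cells. It was not tested. Its difference of 0.29 was close to the 0.33 of the dim probe sets as a whole.

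B4galnt1, which adds N-acetylgalactosamine in all series, was the member left out by the filter. Its ratios were 0.830, 1.022, 0.901 and 0.846 in O4+ cells, against 0.748, 0.641, 0.683, 0.742 and 0.764 in A2B5+ cells, so only 1 of 9 reached 1. The populations did not overlap. The difference of 0.33 left 0.0020 once the 0.33 of the dim probe sets was taken off. After their pattern was subtracted the SD of B4galnt1 over A2B5+ arrays was 0.11, against a median of 0.047 for dim probe sets. Without any filter B4galnt1 had an adjusted p of 0.0311 and St8sia1 one of 0.0382 (limma), in a fit where 78.0% of the calls on array A were higher.

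**Figure D3:**
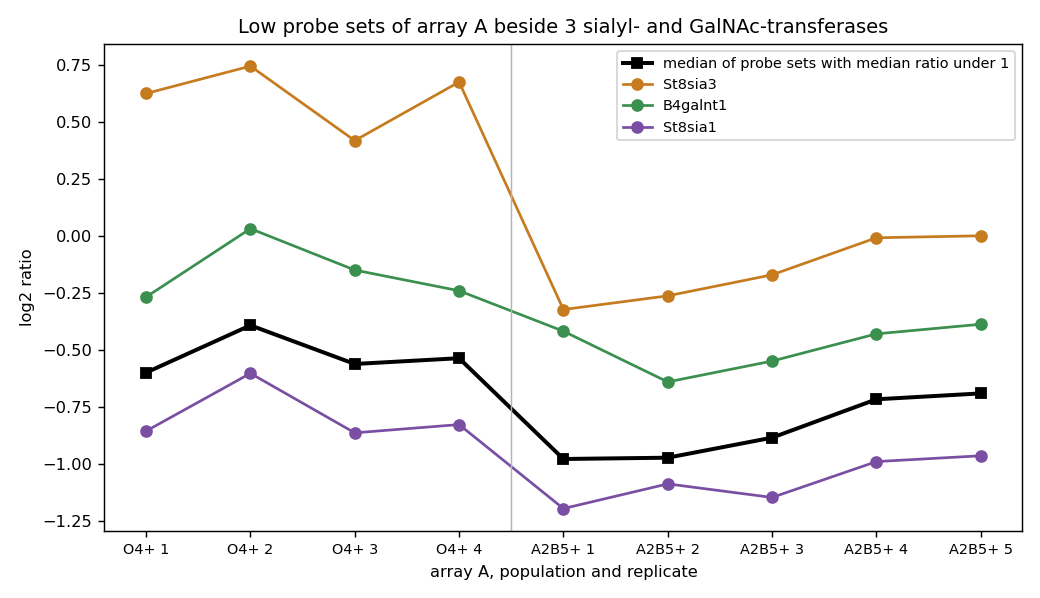
Log2 ratio on the 9 arrays of array A, O4+ left of the line and A2B5+ right of it, for St8sia3, B4galnt1 and St8sia1 beside the median of the 2910 probe sets with a median ratio under 1 (black squares). St8sia1 keeps a nearly even distance from the black line on all arrays. B4galnt1 keeps a less even one and lies farthest above the line on A2B5+ replicate 1. St8sia3 keeps a nearly even distance on A2B5+ arrays but lies farther above the line on O4+ arrays.

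B3galt4 adds the galactose that completes the core chain. Its ratios were 1.215, 1.732, 1.000 and 1.060 in O4+ cells, against 0.798, 0.845, 0.719, 0.809 and 1.002 in A2B5+ cells. The ranges overlapped only through A2B5+ replicate 5, just above O4+ replicate 3. The difference of 0.56 ± 0.18 was called (limma, adjusted p = 0.0290) but was lost under more alternatives than that of any other member. The call ended with arrays centred on their medians (0.39, adjusted p = 0.0887) or on dim probe sets (0.23, adjusted p = 0.268). It also ended without O4+ replicate 1 (adjusted p = 0.0584) and without A2B5+ replicate 1 (0.0557), 2 (0.0538), 3 (0.0650) or 4 (0.0519), with differences of 0.51 to 0.57.

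For 5 members the genes of the same array type with the nearest pattern over the 9 arrays were sought, by the root mean square difference of log2 ratios after each was centred on its mean. St8sia5 lay nearest to Smtnl2 and Nmnat1 (0.301 and 0.337), which differed by 2.05 ± 0.26 and 2.42 ± 0.30. St6galnac3 lay nearest to Fdft1, the squalene synthase of cholesterol synthesis, and Rab4a, a small GTPase of endosome recycling (0.269 and 0.295). The nearest to St3gal2 on array A were Pdpn and Top2a (0.175 and 0.209), the second a topoisomerase of dividing cells. On array B the nearest to St3gal2 were Pttg1ip and Ccdc177 (0.0800 and 0.0896). St8sia3 lay 0.0884 from both Sprtn and Pes1. Ugcg lay nearest to Afg3l1 and Exoc7 (0.109 and 0.111). B4galnt1 had no tested probe set for this comparison.

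The other glycosyltransferases of glycosphingolipids also moved both ways. Of 12 such genes 9 were on the arrays and 6 tested, 2 higher and 3 lower, where the fit with 1 row per gene called 46.5% of 11982 genes, 28.8% higher and 17.8% lower. That fit called 5 of 9 tested members higher and 3 lower, with a median difference of 0.56 against 0.14 over all genes. Among the lower ones it took St3gal2 and St3gal1 from array A alone, and their array B probe sets were not called. St3gal4, a sialyltransferase of glycoproteins and glycolipids, had ratios of 3.408, 2.076, 2.461 and 3.942 in O4+ cells, against 0.459, 0.633, 1.000, 0.912 and 0.661 in A2B5+ cells. Every O4+ array was higher, by 2.03 ± 0.26 (limma, adjusted p = 0.000239). Its relative St3gal6 had ratios of 0.163, 0.210, 0.218 and 0.367 in O4+ cells, against 1.029, 1.543, 1.000, 1.310 and 1.160 in A2B5+ cells. Every O4+ array was lower, by -2.38 ± 0.23. B3galnt1, which makes globoside, differed by -1.73 ± 0.16. St6galnac4 (-0.99 ± 0.15) and B4galt5 (0.51 ± 0.17) are named after their values were seen. Only 1 gene was higher under either centring, and without O4+ replicate 1, 2 or 4.

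Few genes of ganglioside breakdown were called. Of 8 tested genes of ganglioside breakdown 1 was higher and 0 lower by limma, against 28.8% higher and 17.8% lower over all genes. At an unadjusted p under 0.05 there were 2 higher and 0 lower, and the list's median difference was 0.01 against 0.14 over all genes. The 1 called was Neu1, the lysosomal sialidase (0.50 ± 0.13), which was no longer called with arrays centred on dim probe sets (0.18, adjusted p = 0.274). Under either centring 1 gene of the list was lower. Without O4+ replicate 4 the count of lower genes was 1, and 2 were higher without O4+ replicate 2 or A2B5+ replicate 5. Of 11 tested genes that supply sialic acid and sugar nucleotides 4 were higher (36.4%, near the 28.8% over all genes) and 0 lower by limma, with 4 and 2 at an unadjusted p under 0.05. Centred on array medians 2 were higher and 3 lower, and centred on dim probe sets 1 and 4. Without O4+ replicate 1, 2 or 3 the higher genes numbered 2, 2 and 1, and without A2B5+ replicate 3 or 4 they numbered 2. The called genes with the largest differences were Slc35a2, the Golgi carrier of UDP-galactose (1.32 ± 0.17), Uap1 (0.93 ± 0.32) and Ugp2, which makes UDP-glucose (0.48 ± 0.14). The call of Ugp2 ended with arrays centred on their medians (0.31, adjusted p = 0.0663), and with arrays centred on dim probe sets neither Ugp2 (0.15, adjusted p = 0.346) nor Uap1 (0.86, adjusted p = 0.0584) was called. The carrier had ratios of 2.097, 1.457, 1.886 and 2.359 in O4+ cells, against 1.000, 0.695, 0.714, 0.692 and 0.788 in A2B5+ cells, with no overlap.

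Around ceramide, from which both gangliosides and sulfatide are made, 5 of 11 tested genes were higher and 2 lower (45.5% and 18.2%, against 28.8% and 17.8% over all genes). Centred on dim probe sets 3 were higher and 3 lower, and without any one of the O4+ replicates or of A2B5+ replicates 1, 3 and 4 only 1 was lower. Cers2, the ceramide synthase of very long acyl chains, had ratios of 6.100, 4.605, 5.412 and 6.391 in O4+ cells, against 1.000, 0.920, 0.754, 0.955 and 0.735 in A2B5+ cells. It differed by 2.69 ± 0.15 (limma, adjusted p = 1.37e-06). Cers6, which uses shorter acyl chains, differed by -0.92 ± 0.21. Gltp, a glycolipid transfer protein, rose by 2.28 ± 0.22. In the branches to sulfatide and sphingomyelin 6 of 10 genes were higher and 1 lower, with no change in these counts under either centring, led by Ugt8 (5.38 ± 0.64), Fa2h, which hydroxylates its fatty acid (4.30 ± 0.35), and Gal3st1, which adds the sulfate (4.27 ± 0.25). No member of the ganglioside path had a difference of that size. O4 sorting selects cells by sulfatide, and A2B5 sorting by gangliosides.

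**Figure D4:**
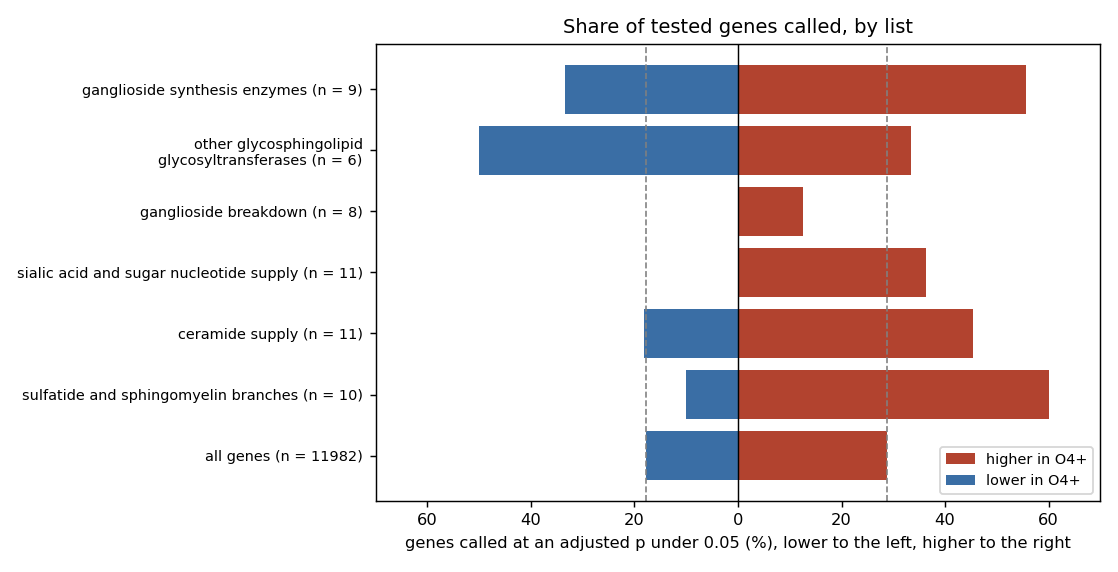
Percent of tested genes called higher (red, to the right) and lower (blue, to the left) in O4+ cells, for the ganglioside synthesis enzymes, 5 neighbouring gene lists and all 11982 genes, in the fit with 1 row per gene. The dashed lines mark the shares over all genes, 28.8% and 17.8%. The ganglioside enzymes are split between both directions, and ganglioside breakdown has 1 call of 8. The lower share of the ganglioside enzymes includes St3gal2 and St3gal1, for which only the array A probe sets were used.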

How the data were processed

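RNA of sorted rat cells, labelled with biotin, was hybridised to 2 array types. The authors deposited linear ratios. Per the submitters' processing notes GCRMA was used, with no version named. The step from GCRMA to ratios is not stated in the labels or files. Row medians are exactly 1 for 12995 of 15923 probe sets (array A) and 11050 of 15333 (array B) and below 1 for the rest, so absolute levels are unknown. The number of arrays limits the precision. Groups come from the sample titles, and 0 columns were left unmapped.

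The log2 of each ratio was fitted with limma 3.58.1 in R 4.3.3 (lmFit, eBayes, two-sided) on each array type and on 1 row per gene, the mean of its tested probe sets with array A used before array B. The script was tested on simulated data. P-values set the difference between the populations against the spread between replicates, which limma moderates over all rows of a fit. Control probe sets (57 per type) were left out. The annotation gave 1 symbol for 12789 and 7570 probe sets, several for 312 and 100, and none for 2822 and 7663.

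The members and lists were chosen with earlier results of these data known. The rule for naming genes took all members, of each other list the 3 called genes with the largest difference, the 2 genes nearest in pattern to 6 of the members (5 of them tested), and St8sia1. The cell type marker lists are given by counts and array means in place of those names. The sequences are RefSeq's (GRCr8). Alternatives were centring, filters, a pseudocount of 0.1, array weights, a robust prior, a replicate block and leaving out replicates. Among 36 pairs of columns per type, 0 were identical.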

Additional observations from a re-analysis of the deposited data

Results flagged for a closer look

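Of 26 groups of values tested for a sample far from the others (12 member probe sets and St8sia1, each in both populations), 2 stood out by Dixon's test, and chance flags about 1 group in 20. O4+ replicate 2 had an St8sia1 ratio of 0.658, above the 0.549 to 0.563 of the other O4+ arrays. A2B5+ replicate 1 had a ratio of 1.398 for the array B probe set of St3gal2, above the 0.997 to 1.053 of the other A2B5+ arrays. The St8sia1 probe set was dim, and the dim probe sets as a whole also had their highest median on O4+ replicate 2 (-0.39 on the log2 scale).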

How the results depend on the processing

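All 11 tested member probe sets kept their direction under every alternative run. Of 187 comparisons with an alternative, 176 kept their side of the threshold, 8 lost a call and 3 gained one. The losses were those of B3galt4 and Ugcg, the gains those of St3gal5. Its gains came with array weights, with the replicate block and without A2B5+ replicate 5, and the last of these share a difference of 0.45 with the block. The 3 falls on array A were called throughout, with values under left-out replicates of -2.10 to -1.87 for St3gal2, -1.56 to -1.08 for St3gal1 and -1.36 to -1.13 for B4galt6. Centring arrays on dim probe sets, chosen after seeing the data, left 2 of 4 higher members on array A and 3 of 5 in the fit per gene. Leaving out replicates gave 3 to 5 higher members on array A. Over all probe sets of array A the higher calls numbered 4259, but 2439 with arrays centred on their medians, 1648 with arrays centred on dim probe sets and 7128 with no filter. The lower calls numbered 1929, but 2945 centred on dim probe sets. The replicate numbers were not taken as pairs: the labels do not tie them, and the deviations of same-numbered O4+ and A2B5+ arrays from their group means correlated at 0.020 to 0.305 on array A, where 1 of the 4 O4+ arrays correlated best with its own number. On array B they correlated at -0.198 to 0.237 by the labelled numbers and at -0.0233 to 0.229 with O4+ arrays in the order of array A. With the replicate block, which pairs samples only by number, 6232 probe sets were called on array A and 2196 on array B, 5403 genes in the fit per gene, and St3gal5 became called (0.45, adjusted p = 0.0421). The limits are the number of arrays, unknown levels and 1 probe set for most members.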

Other observations

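Further genes of the sulfatide and sphingomyelin branches, which share ceramide with gangliosides, also differed, and are named here after their values were seen. Of the 10 tested genes of these branches 3 were not called, Sgms1, Samd8 and Galc. Smpd3, the neutral sphingomyelinase, differed by -2.58 ± 0.26, Smpd1, the acid sphingomyelinase, by 1.14 ± 0.20 and Arsa, which removes the sulfate of sulfatide in lysosomes, by 1.46 ± 0.19 (limma, adjusted p = 5.40e-05, 0.00155 and 0.000223).

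Replicate numbers of O4+ cells did not line up between the array types. On 100 shared probe sets, deviations from the O4+ mean on array A replicates 1, 2, 3 and 4 correlated best with those of array B replicates 3, 4, 1 and 2, with r of 0.84, 0.94, 0.80 and 0.89 across probe sets, while equal numbers gave 0.04, -0.80, -0.04 and -0.79. The 5 A2B5+ replicates each correlated best with their own number (r of 0.78 to 0.89). Probe sets are not independent replicates. The main fits do not use the replicate numbers, but the replicate block uses them on both array types, and the fit per gene uses them where it blocks, weights or leaves out replicates. In the order of array A the St8sia5 ratios of O4+ cells would read 7.518, 2.322, 4.311 and 3.192, beside 6.419, 2.869, 3.635 and 6.076 for St6galnac3.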
